A study of Mus musculus with 12 samples.

Results

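The genes Amy1, Tnnt1, Myzap, Map3k19, Ccdc18, Casc4, Chst3, Chdh and Rhox5 make up 9 of the 33100 rows of a mouse gene count table, and each was found by its symbol. They were picked by hand, from earlier results of the same data, because each was much higher in tumor samples with a conditional knockout than in control tumor samples and has no textbook role in lymphocytes. That difference in tumor is therefore described below without a test. The samples, all labelled NK cells, came from spleen or tumor of control (WT) mice or of mice in which 1 gene was conditionally knocked out (cKO). Each tissue and genotype makes a group of 3 libraries, 4 groups in all. The labels give no Cre driver, tumor model, treatment, age or sex, nor whether a group's libraries are separate animals, so p-values cover the spread between libraries, which may be technical. All 9 genes are protein-coding and passed the filter on low counts that left 16831 genes tested.

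The library totals ran from 9542329 to 13753737 counts in spleen and from 15765906 to 37118494 in tumor. Within groups, log2 levels of 12283 genes correlated at 0.9836 to 0.99 for spleen, at 0.934 to 0.983 for tumor WT and at 0.9675 to 0.9868 for tumor cKO, so the tumor WT libraries were the least alike. The labelled cell type was checked against marker genes. Ncr1, which encodes the NK receptor NKp46, ranged from 90.8 to 203.9 CPM (reads scaled to library size) over the spleen libraries but only from 0.421 to 1.86 CPM over those of tumor. The tumor libraries thus hardly held this defining NK transcript. Because these are bulk samples, a change in the number of cells of a type and a change of RNA per cell cannot be told apart.

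The set has no common pathway. Tnnt1 encodes slow skeletal muscle troponin T, the part of the troponin complex that holds it to tropomyosin, and Myzap encodes myozap, a protein of cardiac intercalated discs. Amy1 encodes alpha-amylase of salivary gland and liver, Chst3 a Golgi sulfotransferase that sulfates chondroitin, Chdh the mitochondrial choline dehydrogenase that opens the oxidation of choline to betaine, and Map3k19 a kinase of the MAP kinase kinase kinase group. Ccdc18 encodes a coiled-coil protein, Casc4 (listed by RefSeq as Golm2) a Golgi membrane protein, and Rhox5 a homeobox transcription factor of the reproductive homeobox cluster on the X chromosome, known from testis, epididymis, placenta and many tumor cell lines.

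RefSeq promoter windows on GRCm38.p6 are shown for 4 of the genes whose neighbours or partners come up below. Casc4 and Ccdc18 had similar levels over the 4 groups. Tnnt1 lies beside another troponin gene, and Chdh shares its upstream interval with a gene that starts there in the opposite direction. Each window is the part of the 250 bases before the RefSeq start that lies outside every counted exon. It is written 5′ to 3′, with matches to GGGCGG on either strand in capitals.
Casc4, chr2:121866720-121866969, plus strand: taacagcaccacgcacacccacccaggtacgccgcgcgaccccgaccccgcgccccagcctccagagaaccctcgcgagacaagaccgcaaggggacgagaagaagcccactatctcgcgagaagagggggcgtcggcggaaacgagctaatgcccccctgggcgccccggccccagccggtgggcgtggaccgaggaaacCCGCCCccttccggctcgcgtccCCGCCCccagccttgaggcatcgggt
Ccdc18, chr5:108132664-108132874, plus strand: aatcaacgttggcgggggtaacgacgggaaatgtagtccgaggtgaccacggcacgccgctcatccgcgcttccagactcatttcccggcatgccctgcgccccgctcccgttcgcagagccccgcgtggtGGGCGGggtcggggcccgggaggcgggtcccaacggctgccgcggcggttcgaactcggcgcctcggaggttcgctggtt
Tnnt1, chr7:4516005-4516225, minus strand: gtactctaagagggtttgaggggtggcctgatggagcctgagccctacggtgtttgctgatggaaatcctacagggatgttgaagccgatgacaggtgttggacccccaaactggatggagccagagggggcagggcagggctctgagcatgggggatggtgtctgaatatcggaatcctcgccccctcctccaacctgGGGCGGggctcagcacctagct
Chdh, chr14:30008897-30008999, plus strand: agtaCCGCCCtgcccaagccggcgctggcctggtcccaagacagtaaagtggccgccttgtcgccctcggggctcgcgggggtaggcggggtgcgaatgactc
The Casc4 window holds 29 CG pairs, the 211-base Ccdc18 window 30, the 221-base Tnnt1 window 5 and the 103-base Chdh window 10. The medians over the same slice of all RefSeq promoters are 6, 4, 5 and 3, so CG pairs are dense in all of these but Tnnt1. GGGCGG occurs 2 times in the Casc4 window and 1 time in each of the others. Of all promoters, 32.7%, 26.9%, 28.7% and 25% hold it in the same slice as Casc4, Ccdc18, Tnnt1 and Chdh, so a match is common. The other motifs searched on both strands have no match in the 4 windows as printed, but the full 250 bases of Tnnt1 hold TATAAA at the edge of the 29 bases left out before its start. They were the TATA box letters TATAAA (in 12.4% of all promoters over 250 bases), the CCAAT box (33.8%), the E-box CACGTG (6.02%), and the E2F site forms TTTCCCGC (0.895%) and, as the second form, TTTGGCGC (0.417%).

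Tnnt1 (chr7:4504570-4516382, minus strand) was a tumor transcript in these data. The spleen WT libraries held 2.28, 1.05 and 0.567 CPM and the spleen cKO libraries 0.147, 1.0 and 0.426 CPM. In tumor WT the level was 31.2, 19.3 and 26.5 CPM, and in tumor cKO it was 83.3, 69.4 and 105.1 CPM. Every tumor library was above every spleen library, and the lowest tumor cKO library was above the highest tumor WT library. The means were 25.6 ± 5.98 and 86.0 ± 18.0 CPM in tumor (SD, n = 3), a fitted log2 difference of 1.75 ± 0.35 (SE).

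No other troponin gene was called higher in tumor cKO. Tnni3, the cardiac troponin I gene, whose 3′ end lies 1.92 kb away, stood at 18.0 ± 19.9 CPM in tumor WT and 2.60 ± 1.17 CPM in tumor cKO (log2 -2.81, adjusted p = 0.00891 in edgeR's quasi-likelihood test), and was not called without tumor WT replicate 2 (log2 -1.33, adjusted p = 0.0587). Tnnt2, the cardiac troponin T gene, ranged from 0.181 to 146.7 CPM in tumor WT and from 0.31 to 0.512 CPM in tumor cKO, so the groups overlapped. Its call (log2 -6.84, adjusted p = 0.0233) was lost without tumor WT replicate 2 (log2 -1.38, adjusted p = 0.386) and without any 1 of the tumor cKO libraries (adjusted p = 0.0688 to 0.114). Tnni1, the slow skeletal troponin I gene, stood at 18.0 CPM in tumor WT and 26.3 CPM in tumor cKO and did not pass the test (adjusted p = 0.236). Of 20 tested troponin and sarcomere genes other than Tnnt1, 2 were called higher and 8 lower in tumor cKO, with a median log2 difference of -1.12 against -0.117 over all tested genes. The 8 became 3 without tumor WT replicate 2, with a median of -0.16, and 4, 5 and 4 without tumor cKO replicates 1, 2 and 3. The calls over all tested genes were 16.4% higher and 21.6% lower. The genes called higher were Cox6a2, a muscle form of a cytochrome oxidase subunit (log2 2.32, adjusted p = 0.000168), and Mylpf, a fast skeletal myosin light chain (log2 1.31, adjusted p = 0.00488). The most abundant gene of the list, Tpm1, stood at 184.2 and 183.1 CPM (log2 -0.01, adjusted p = 0.969).

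Myzap (chr9:71504347-71592360, minus strand) was present in all libraries. Its level was 17.2, 15.8 and 5.67 CPM in spleen WT, 16.2, 10 and 12.4 CPM in spleen cKO, and 30.8, 25.4 and 22.4 CPM in tumor WT. In tumor cKO it was 133.8, 105.7 and 197.9 CPM. No other library reached the lowest tumor cKO library, and the spleen groups overlapped. The tumor means were 26.2 ± 4.26 and 145.8 ± 47.3 CPM (SD, n = 3), a log2 difference of 2.48 ± 0.36.

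Myzap shares 1305 exon bases with Gcom1, a read-through gene that joins Myzap to Polr2m, which encodes an RNA polymerase II-associated protein. Gcom1 stood at 39.5 CPM in tumor WT and 163.5 CPM in tumor cKO (log2 2.05 ± 0.24, adjusted p = 7.77e-05), and Polr2m at 53.1 and 77.3 CPM (log2 0.54, adjusted p = 0.0201, and 0.0599, 0.0679 and 0.104 without tumor WT replicate 1, tumor WT replicate 3 and tumor cKO replicate 3). Reads of Myzap and Gcom1 cannot be told apart in the shared exons, so the Gcom1 value is not a separate measurement. On the other side, the junction gene Cgnl1 stood at 22.1 and 20.5 CPM (adjusted p = 0.902). Among genes of other intercalated disc and junction proteins, 0 of 9 tested were called higher and 8 lower, with a median log2 difference of -1.59, and 5 were lower when replicate 2 of tumor WT was left out together with replicate 3 of tumor cKO. Among the most abundant of them, the alpha-catenin gene Ctnna1 fell from 295.9 to 133.3 CPM, the beta-catenin gene Ctnnb1 from 236.4 to 144.2 CPM and the vinculin gene Vcl from 49.6 to 26.0 CPM (adjusted p = 5.22e-05, 0.00789 and 0.00672).

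**Figure D1:**
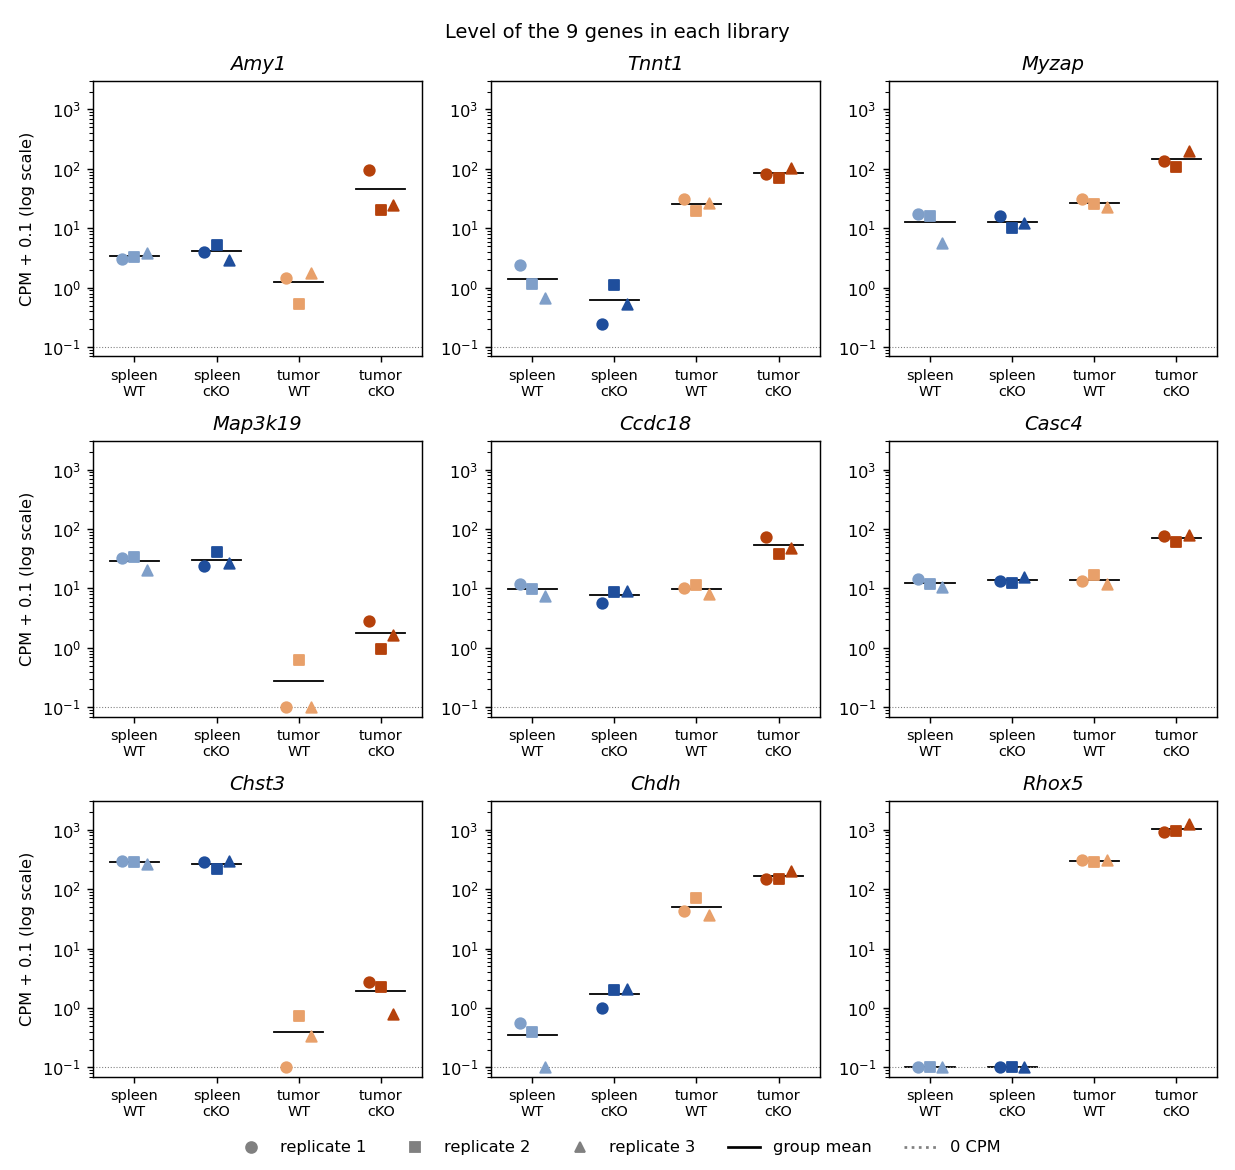
CPM plus 0.1 on a log axis for each of the 9 genes, with 1 point per library (circle, square and triangle for replicates 1, 2 and 3), a bar at the group mean, and a dotted line at 0 CPM. In each panel the 3 tumor cKO points lie above the 3 tumor WT points. Map3k19 and Chst3 are highest in spleen, and Rhox5 has no reads in the 6 spleen libraries.

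Amy1 (chr3:113555710-113606699, minus strand) had the widest spread of the set in tumor cKO. Its level was 2.96, 3.16 and 3.78 CPM in spleen WT and 3.89, 5.21 and 2.84 CPM in spleen cKO. The tumor WT libraries held 1.34, 0.423 and 1.69 CPM and the tumor cKO libraries 94.0, 20.5 and 24.8 CPM. Replicate 1 of tumor cKO was thus 4.59 times replicate 2, while all 3 stood above every other library. The means were 1.15 ± 0.653 and 46.4 ± 41.3 CPM (SD, n = 3), a log2 difference of 5.42 ± 0.68 that was 4.36 without tumor cKO replicate 1.

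The other amylase genes, the pancreatic type Amy2 copies, were spleen transcripts in these data. Their summed level was 31.3 to 50.8 CPM in spleen and at most 0.24 CPM in tumor, where no copy had more than 4 reads in a group. Amy2b stood at 17.0, Amy2a5 at 14.2 and Amy2a3 at 5.54 CPM in spleen WT. These copies are nearly alike in sequence, so the split of reads among them is uncertain. Amy1 itself shares 33.3% of its 50-base transcript stretches with other genes, and 31.8% with Rnpc3, a spliceosome gene with which it overlaps over 1128 exon bases on the same strand. Rnpc3 stood at 19.9 ± 1.89 CPM in tumor WT and 19.6 ± 3.01 CPM in tumor cKO (log2 -0.02, adjusted p = 0.917). Over the 12 libraries the genes most like Amy1, by Pearson's r of log2 CPM among 10554 genes, were Mier1 (0.9559), Hmgb1 (0.9359) and Rnf168 (0.9354). Hmgb1, an abundant chromatin protein, stood at 1437.2 and 1492.5 CPM in spleen and at 982.6 and 2291.8 CPM in tumor (WT, then cKO). For Tnnt1 they were Ythdf2 (0.988), Ston2 (0.9837) and Pde10a (0.9835). Ythdf2 stood at 16.4 and 14.3 CPM in spleen and at 27.9 and 32.7 CPM in tumor. Ston2 stood at 0.894 and 0.946 CPM in spleen and at 8.41 and 18.4 CPM in tumor. The phosphodiesterase gene Pde10a stood at 0.416 and 0.267 CPM in spleen and at 7.47 and 38.5 CPM in tumor. A high r over the 12 libraries thus did not require a like rise in tumor cKO. For Myzap the most similar genes were Cmtm7 (0.9828), the DNA ligase gene Lig4 (0.9808) and Myo19 (0.978).

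Chst3 (chr10:60181532-60219260, minus strand) was foremost a spleen transcript. It stood at 296.0, 289.3 and 268.7 CPM in spleen WT and 284.1, 218.1 and 293.3 CPM in spleen cKO. The tumor WT libraries held 0, 22 and 4 reads, or 0, 0.621 and 0.241 CPM, and the tumor cKO libraries 62, 36 and 18 reads, or 2.65, 2.16 and 0.697 CPM. The rise in tumor thus ran from nearly nothing to a level that was still 155.0 times lower than the spleen WT mean. The means in tumor were 0.287 ± 0.313 and 1.84 ± 1.02 CPM (SD, n = 3), a log2 difference of 2.32 ± 0.61 that was 3.84 without tumor WT replicate 2.

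The genes whose levels tracked Chst3 most closely, by the same measure, were Ms4a1 (0.9969), Pax5 (0.9933) and Lynx1 (0.9924). Ms4a1 and Pax5, a surface protein and a transcription factor of B cells, stood at 359.3 and 567.4 CPM in spleen WT, at 0.755 and 1.48 CPM in tumor WT and at 2.52 and 3.48 CPM in tumor cKO. Like Chst3 they differed far more between the tissues than within them, so a high r is in large part built in. The 10 B cell markers had summed levels of 2270.6 to 2928.9 CPM in spleen, against 29.8 to 106.4 CPM for tumor WT libraries and 15.6 to 47.6 CPM for those of tumor cKO. Of these markers, 2 were called higher and 2 lower in tumor cKO, but 0 higher without tumor WT replicate 3 or tumor cKO replicate 1, 1 higher without tumor WT replicate 1, and 1 lower without tumor WT replicate 2 or tumor cKO replicate 2 or 3. Their part in the Chst3 level was not tested. Among 17 tested genes of chondroitin sulfate synthesis, 0 were called higher and 9 lower in tumor cKO, with a median log2 difference of -0.66. They included Chsy1, a chondroitin polymerase (36.8 to 19.1 CPM, adjusted p = 0.00253), Csgalnact2, which starts the chain (92.9 to 42.5 CPM, adjusted p = 7.98e-05), and Dse, which epimerizes the chain to dermatan sulfate (49.9 to 8.37 CPM, adjusted p = 0.000715). Without tumor cKO replicate 1, 1 of the 17 was called higher. The 9 called lower became 6 without tumor cKO replicate 3. They became 7 or 8 without any other library except spleen cKO replicate 2, where they stayed 9. Xylt1, which adds the first sugar to the core protein, stood at 123.5 and 116.5 CPM (adjusted p = 0.763).

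Map3k19 (chr1:127815253-127855031, minus strand) had the same order of tissues. Its level was 32.8, 34.2 and 19.9 CPM in spleen WT and 24.0, 40.5 and 26.8 CPM in spleen cKO. In tumor WT there were 0, 19 and 0 reads, and in tumor cKO 63, 14 and 40 reads, or 2.69, 0.842 and 1.55 CPM. The tumor WT value therefore came from 1 library, which itself stood at 0.536 CPM, below the lowest tumor cKO library. The log2 difference in tumor was 2.77 ± 0.74. Without tumor WT replicate 2 the tumor WT group had no reads, and tumor cKO was at least 19.1-fold higher than the floor of 3 counts over the group, or 9.54-fold for 6 counts, as for 3 fragments whose mates are both counted. Among 15 other tested MAP kinase kinase kinase genes, 3 were called higher and 5 lower in tumor cKO (3 lower without tumor WT replicate 3 or tumor cKO replicate 3), with a median log2 difference of -0.26. Those called higher were Map3k4 (39.3 to 75.7 CPM), Map3k7, which encodes the kinase TAK1 (80.5 to 121.8 CPM), and Map3k10 (9.63 to 18.1 CPM), with adjusted p = 0.00115, 0.00284 and 0.00488. Map3k1, the most abundant, stood at 119.1 and 120.2 CPM (adjusted p = 0.95). The genes that flank Map3k19, the cyclin gene Ccnt2 and Rab3gap1, were not called (adjusted p = 0.0589 and 0.0913). The genes most like Map3k19 over the libraries were Ccdc191 (r = 0.9921), Dpp8 (0.9918) and Fam175a (0.9888), and its r with Chst3 was 0.97.

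Chdh (chr14:30009023-30040466, plus strand) was low in spleen and high in tumor. The spleen WT libraries held 6, 4 and 0 reads, or 0.455, 0.301 and 0 CPM, and the spleen cKO libraries 12, 19 and 28 reads, or 0.880, 1.90 and 1.99 CPM. The tumor WT libraries held 41.9, 70.5 and 36.6 CPM and the tumor cKO libraries 148.5, 147.8 and 203.4 CPM. The cKO libraries were above the WT libraries in both tissues, with no overlap in either. In tumor the means were 49.6 ± 18.2 and 166.6 ± 31.9 CPM (SD, n = 3), a log2 difference of 1.74 ± 0.31.

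Il17rb, a subunit of the receptor for interleukins of the IL-17 family, is read from the opposite strand and starts 127 bases from the Chdh row, so the genes are divergent and the window printed above lies between their starts. It rose from 3.52 ± 0.747 to 8.66 ± 0.917 CPM in tumor (log2 1.29 ± 0.46, adjusted p = 0.0416). The call was lost without spleen cKO replicate 1 or 3, tumor WT replicate 1 or 3, or any 1 of the tumor cKO libraries, at adjusted p = 0.0508 to 0.126. Cacna1d, a calcium channel gene on the opposite strand that shares 518 exon bases with the end of Chdh, stood at 31.1 and 17.7 CPM (log2 -0.81, adjusted p = 0.0619). The strand setting of the counting is not given in the sources used here, so reads in that overlap may belong to either gene. Of the other genes of choline and betaine metabolism, 0 of 10 tested were called higher (1 without tumor WT replicate 2) and 6 lower, with a median log2 difference of -0.97. The 6 became 4 without tumor WT replicate 1 or 2, tumor cKO replicate 2 or 3, or spleen cKO replicate 3. They became 5 without tumor WT replicate 3 or any 1 of the spleen WT libraries. The choline kinases Chka (57.4 to 29.3 CPM, adjusted p = 0.00066) and Chkb (67.5 to 31.2 CPM, adjusted p = 0.00362) fell, as did Aldh7a1, which oxidizes betaine aldehyde, the product of Chdh (17.9 to 6.54 CPM, adjusted p = 0.00183). Pcyt1a, which activates phosphocholine for phosphatidylcholine synthesis, fell from 187.3 to 92.9 CPM (adjusted p = 0.00441). The choline transporter gene Slc44a2 stood at 55.8 and 71.6 CPM and was not called (adjusted p = 0.123).

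Ccdc18 (chr5:108132875-108233628, plus strand) and Casc4 (chr2:121866970-121936220, plus strand) lay at the same level in 3 of the 4 groups. Ccdc18 stood at 11.9, 9.79 and 7.46 CPM in spleen WT, 5.65, 8.52 and 8.95 CPM in spleen cKO, and 10.2, 11.3 and 7.90 CPM in tumor WT, all overlapping. In tumor cKO it stood at 73.1, 37.6 and 47.9 CPM, a mean of 52.9 ± 18.2 against 9.80 ± 1.75 CPM in tumor WT (SD, n = 3) and a log2 difference of 2.43 ± 0.28. Only tumor cKO was set apart. Casc4 stood at 14.0, 11.7 and 10.4 CPM in spleen WT, 13.2, 12.2 and 15.3 CPM in spleen cKO, and 13.4, 16.8 and 11.7 CPM in tumor WT. Its tumor cKO libraries held 75.1, 59.2 and 79.5 CPM, a mean of 71.3 ± 10.7 against 14.0 ± 2.62 CPM and a log2 difference of 2.34 ± 0.19. Log2 CPM of the 2 genes correlated at r = 0.97 over the 12 libraries, which share the 4 groups, and Casc4 was the best match of Ccdc18 among all genes compared. Both genes were chosen for their rise in tumor cKO, so a high r is in part built in. Within tumor cKO their order differed, with replicate 1 the highest for Ccdc18 and replicate 3 for Casc4. Desi1 was also among the 3 best matches of Ccdc18 (r = 0.9618).

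The genes most like Casc4 over the libraries were Mcm4 (r = 0.990), Tipin (0.9896) and Prim1 (0.9892), which encode a helicase subunit, a fork protection protein and a primase subunit of DNA replication, and Prim1 was also the second match of Ccdc18 (0.9645). Prim1 stood at 9.59 and 10.9 CPM in spleen (WT, then cKO) and at 11.1 and 40.2 CPM in tumor. Of 20 cell cycle genes, 19 were called higher in tumor cKO and 0 lower, with a median log2 difference of 1.49. Their summed level was 1499.8 to 2224.4 CPM in tumor WT and 4787.1 to 6575.0 CPM in tumor cKO. Tumor cKO replicate 3 was the highest for this sum, as it was for 5 of the 9 genes, Casc4 among them. Replicate 2 was the lowest, as for 7 of the 9, Ccdc18 and Casc4 among them. In spleen the sum was 1150.2 to 1262.1 CPM in WT and 1494.8 to 1678.7 CPM in cKO, without overlap. Ccdc18 (log2 -0.34) and Casc4 (log2 0.17) overlapped there. The part of cell division in the level of either gene was not tested.

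The 22 other centrosome and centriolar satellite genes tested held 16 called higher and 1 lower (2 without tumor WT replicate 2) in tumor cKO, with a median log2 difference of 0.91. They included Pcm1, a scaffold of the satellites (133.2 to 245.3 CPM, adjusted p = 7.9e-05), Pcnt, a scaffold of the pericentriolar material (172.3 to 253.9 CPM, adjusted p = 0.00101), and Plk4, the kinase that starts centriole duplication (9.92 to 23.5 CPM, adjusted p = 0.000504). Cep290, a protein of the ciliary transition zone, fell from 17.8 to 3.94 CPM (adjusted p = 0.00164), and Nin stood at 357.6 and 350.2 CPM (adjusted p = 0.833). Golgi genes were called in both directions: of 13 tested, 2 were called higher and 4 lower (2 without tumor cKO replicate 2), with a median log2 difference of -0.23. The golgin genes Golga3 and Golga1 rose (186.6 to 250.2 and 10.1 to 15.8 CPM, adjusted p = 0.00488 and 0.0103), and Tgoln1, a protein of the trans-Golgi network, fell (132.6 to 76.6 CPM, adjusted p = 0.00026). The most abundant of the list, Golgb1 and Golga2, stood at 437.3 and 286.1 and at 333.8 and 257.9 CPM. Their calls (adjusted p = 0.0355 and 0.0128) were lost without tumor cKO replicate 2 (0.0528 and 0.0566) or tumor WT replicate 3 (0.104 and 0.0554), and that of Golgb1 also without tumor WT replicate 1, tumor cKO replicate 3, spleen WT replicate 2, or spleen cKO replicate 1 or 3 (0.0512 to 0.139). Tmed5, which encodes a cargo receptor of the early secretory pathway and starts 255 bases from Ccdc18 on the opposite strand, stood at 76.5 ± 9.53 and 83.7 ± 10.4 CPM (log2 0.13, adjusted p = 0.449). Ctdspl2, a phosphatase gene 19.8 kb beyond Casc4, rose from 33.1 ± 3.32 to 66.4 ± 7.52 CPM (log2 1.01, adjusted p = 0.000151).

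**Figure D2:**
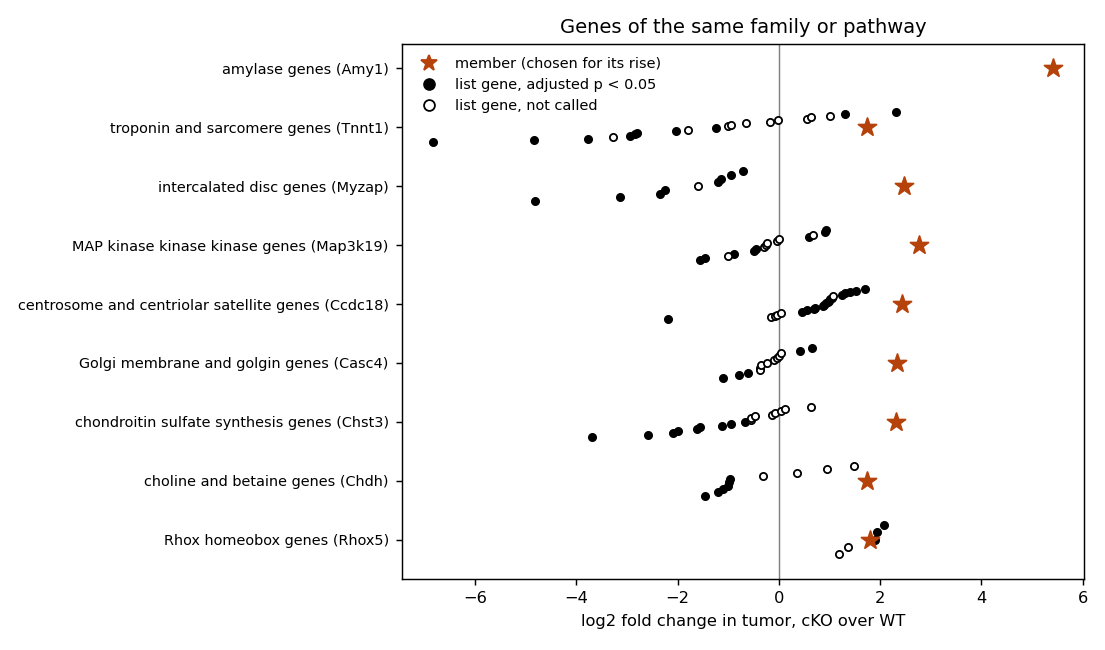
Fitted log2 difference in tumor, cKO over WT, for each of the 9 genes (star) and the tested genes of its family or pathway list (filled where the adjusted p is under 0.05, open where not). Genes with fewer than 10 reads in the 6 tumor libraries are left out, which empties the amylase row. Stars were chosen for their height. Filled points lie mostly to the right of 0 for centrosome genes (16 higher, 1 lower) and mostly to the left for intercalated disc genes (0 higher, 8 lower), choline genes (0 higher, 6 lower) and chondroitin genes (0 higher, 9 lower). These counts are from all 12 libraries and changed with single libraries left out.

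Rhox5 (chrX:37804842-37808876, plus strand) was the most abundant gene of the set in tumor and had no reads in the 6 spleen libraries. The tumor WT libraries held 313.3, 281.6 and 302.7 CPM and the tumor cKO libraries 906.6, 948.7 and 1261.9 CPM. Tumor libraries of a genotype thus lay close together, and the genotypes did not overlap. The means were 299.2 ± 16.2 and 1039.1 ± 194.1 CPM (SD, n = 3), a log2 difference of 1.80 ± 0.15. A floor of 3 counts over the spleen WT group stands for 0.081 CPM, which makes the tumor WT level at least 3636.8-fold higher than that of spleen WT, or 1818.4-fold for 6 counts, if 3 fragments were each counted by both mates.

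Of the other Rhox rows, 5 passed the filter, and none of these 5 had a read in spleen. In tumor cKO 3 were called higher and 0 lower, with a median log2 difference of 1.89. Rhox2-ps, the nearest tested row below Rhox5, rose from 6.20 ± 1.73 to 26.0 ± 1.84 CPM (log2 2.07 ± 0.28, adjusted p = 0.000563), Rhox4a from 3.70 to 13.6 CPM (adjusted p = 0.00255) and Rhox7-ps2 from 1.35 to 5.16 CPM (adjusted p = 0.00967). Rhox4a2 stood at 1.53 and 3.48 CPM and Rhox2h at 0.526 and 1.39 CPM, and neither was called (adjusted p = 0.14 and 0.313). The Rhox2, Rhox3 and Rhox4 copies are nearly alike, so their reads may be split among copies. Zbtb33, the nearest tested gene above Rhox5, stood at 8.17 and 8.97 CPM (adjusted p = 0.646). The genes most like Rhox5 over the libraries were Dclk3, Perp and Klf17 (r = 0.9998, 0.9996 and 0.9994), all without reads in spleen and at 58.7, 52.0 and 36.9 CPM in tumor WT and 192.8, 144.6 and 82.5 CPM in tumor cKO. Since neither Rhox5 nor these genes had reads in spleen, an r near 1 is in large part built in by the tissues.

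Rhox5 and several germline genes are known to be held silent by DNA methylation in most somatic cells, so both groups were looked up. Of 17 germline genes kept silent in this way, only Ddx4, Brdt and Dppa3 passed the filter, and 0 were called in tumor in edgeR (adjusted p = 0.0869, 0.0579 and 0.0847, with all 3 under 0.05 unadjusted), and 1 in DESeq2. Without tumor WT replicate 2, 1 was called higher and 1 lower in edgeR. Their levels were 3.16 and 1.45, 1.29 and 2.85, and 3.01 and 1.03 CPM in tumor WT and tumor cKO. Of 13 tested genes of the methylation and silencing machinery, 5 were called higher and 2 lower, with a median log2 difference of 0.31. The maintenance methyltransferase gene Dnmt1 rose from 285.1 to 927.2 CPM (adjusted p = 6.82e-06), its partner Uhrf1 from 81.9 to 286.0 CPM (adjusted p = 7.07e-05) and the chromatin remodeller gene Hells from 34.4 to 103.1 CPM (adjusted p = 0.000104). The demethylase gene Tet2 fell from 165.2 to 91.9 CPM (adjusted p = 0.000858). DNA methylation itself was not measured.

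Set side by side in tumor, the fitted log2 differences of the 9 genes ran from 1.74 for Chdh to 5.42 for Amy1. All 9 had tumor cKO libraries above the tumor WT libraries, as did 23.0% of all tested genes, and since the genes were chosen by this contrast nothing is read from that. The choice was not a cut by size: 288 genes called in tumor rose by at least as much as Chdh, and just below it lay Gm15317 (1.74) and Cdca8 (1.73). The order of libraries within tumor cKO was shared only in part. Replicate 3 was the highest for 5 genes (Tnnt1, Myzap, Casc4, Chdh and Rhox5) and replicate 1 for the other 4, while replicate 2 was the lowest for 7. The highest library was 4.59 times the lowest for Amy1, 3.8 times for Chst3 and 3.2 times for Map3k19, and between 1.34 and 1.94 times for the other 6.

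On the per-length scale (RPKM, which divides the scaled reads by the listed length), tumor cKO means ran from Rhox5 at 1436.2 through Tnnt1 at 40.6, Chdh at 28.2, Myzap at 26.9, Amy1 at 14.0, Casc4 at 12.7 and Ccdc18 at 8.54 to Map3k19 at 0.36 and Chst3 at 0.295. In spleen WT the same scale put Chst3 first at 44.5, then Map3k19 at 6.02, Myzap at 2.33, Casc4 at 2.09, Ccdc18 at 1.53, Amy1 at 0.971, Tnnt1 at 0.6 and Chdh at 0.0417, with Rhox5 at 0. The top and bottom of the order were thus exchanged between tumor cKO and spleen WT. In tumor WT, too, Rhox5 at 364.4 and Tnnt1 at 10.6 came first, and Chst3 at 0.0415 and Map3k19 at 0.0349 last. Tumor and spleen WT levels did not overlap for 7 genes. Tumor WT was the higher for Chdh (196.9-fold), Tnnt1 (19.7-fold), Myzap (2.03-fold) and Rhox5. It was the lower for Chst3 (991.1-fold), Map3k19 (162.1-fold) and Amy1 (2.87-fold). Ccdc18 and Casc4 overlapped between the tissues in WT.

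In spleen, whose libraries played no part in the choice of the genes, the knockout contrast could be tested. Only 5 of 16831 genes, or 0.0297%, were called there, all higher in cKO, and 0 of the 9 were among them (edgeR's quasi-likelihood test, 2 of the 8 with reads at an unadjusted p under 0.05, as were 4.66% of all tested genes, DESeq2 calling 1). The 2 were Chdh and Tnnt1, with opposite signs. Chdh was higher in spleen cKO, at 59 against 10 reads (log2 2.52 ± 0.64, unadjusted p = 0.00198, adjusted p = 0.684), and was the only one of the set whose spleen groups did not overlap, as held in the same direction for 5.94% of all tested genes. In DESeq2 it was called (adjusted p = 0.00766), where calls over all genes in spleen were 34 higher and 5 lower. In limma on log2 RPKM the Chdh difference was 1.36 and 0.28 with pseudocounts of 0.1 and 1. Macrophage markers, at 322.9 to 403.1 CPM in spleen WT and 577.8 to 748.8 CPM in spleen cKO, and cell cycle genes, at 1150.2 to 1262.1 and 1494.8 to 1678.7 CPM, also had higher sums in spleen cKO without overlap. Their part in the Chdh level was not tested. Tnnt1 had 30, 14 and 6 reads in spleen WT and 2, 10 and 6 in spleen cKO, and the libraries overlapped (log2 -1.44 ± 0.60, unadjusted p = 0.0349, adjusted p = 1). Its difference was -0.76 without spleen WT replicate 1, -0.96 without spleen cKO replicate 1 and -2.18 without spleen cKO replicate 2, and -0.34 in limma with a pseudocount of 1.

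The other 6 with spleen reads had log2 differences of 0.26 ± 0.62 for Amy1, -0.01 ± 0.36 for Myzap, 0.07 ± 0.51 for Map3k19, -0.34 ± 0.28 for Ccdc18, 0.17 ± 0.19 for Casc4 and -0.10 ± 0.36 for Chst3, each with an adjusted p of 1. Whether the tumor and spleen differences differ was not tested, since the tumor contrast chose the genes. Of the 134 tested genes of the family lists and neighbours, 0 were called in spleen in edgeR and 0 in DESeq2, with 3 at an unadjusted p under 0.05.

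**Figure D3:**
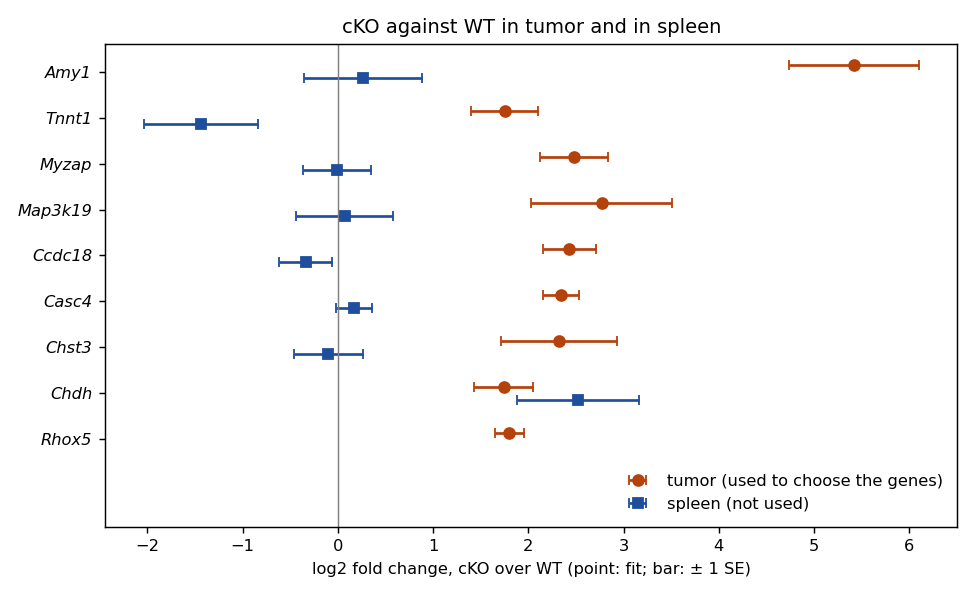
Fitted log2 difference, cKO over WT, with 1 SE on each side, for the 9 genes in tumor (circles, the contrast by which they were chosen) and in spleen (squares). Spleen points lie near 0 except Chdh at 2.52 and Tnnt1 at -1.44. Rhox5 had no reads in spleen and no point there.

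The genes around the 9 were compared as a group. Of 21 overlapping or nearest tested genes, 5 were called higher, 3 lower and 13 neither in tumor, with a median log2 difference of 0.13. Over all tested genes 16.4% were called higher and 21.6% lower, so nothing about the 9 genes is read from these counts. Those called higher were Gcom1, Polr2m, Ctdspl2, Il17rb and Rhox2-ps. Those called lower were Ppp1r12c and Tnni3, on either side of Tnnt1, and Psap, the prosaposin gene 58.4 kb from Chst3 (2862.9 to 581.2 CPM, log2 -2.3, adjusted p = 0.000767, and log2 -1.65 without tumor WT replicate 2). As above, the calls of Tnni3, Polr2m and Il17rb were lost with single libraries left out. Beside Chst3 on the other side, the proteoglycan gene Spock2 stood at 4.84 and 6.26 CPM (adjusted p = 0.391).

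**Figure D4:**
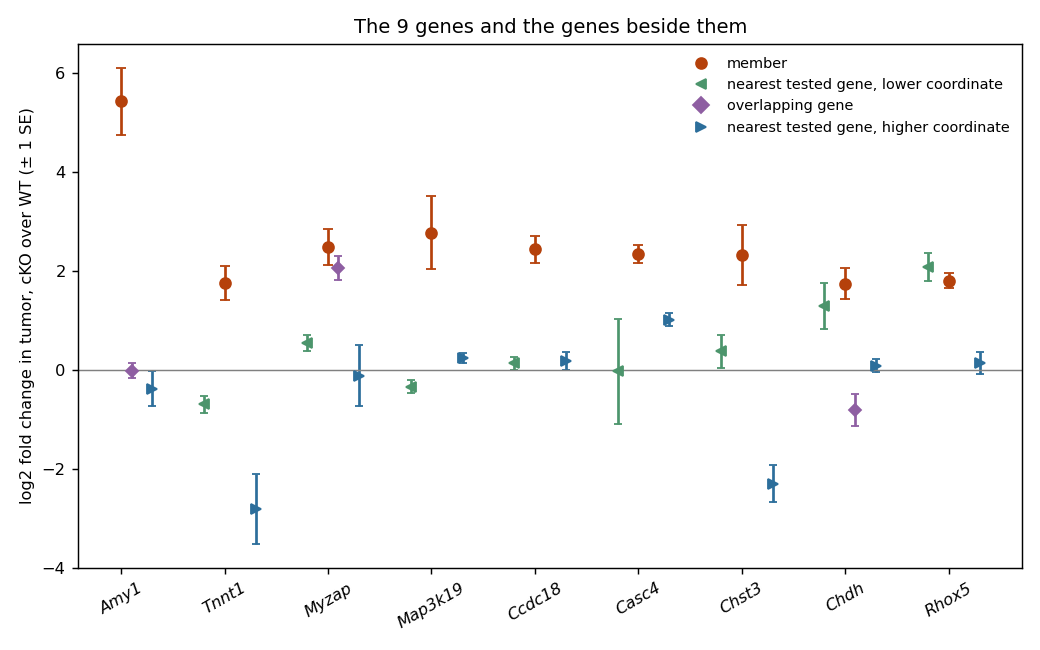
Fitted log2 difference in tumor, cKO over WT, with 1 SE on each side, for each of the 9 genes (circles), genes that overlap it (diamonds) and the nearest tested gene on each side (triangles). Amy2a2, with 3 reads in tumor, is left out. Gcom1 (2.05) shares exons with Myzap and lies above 0. Rhox2-ps (2.07), 121 kb from Rhox5, and Il17rb (1.29), whose call was lost with single libraries left out, also lie above 0. Tnni3 (-2.81) and Psap (-2.3) lie below 0.

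Markers of other cells moved between the tumor genotypes together with the 9 genes. Of 14 macrophage markers 13 were called lower in tumor cKO, with sums of 14735.3 to 29093.3 CPM in tumor WT and 1686.7 to 4789.2 CPM in tumor cKO, and Adgre1, which encodes F4/80, lay at 91.6 to 216.7 and 9.84 to 28.1 CPM. Of 15 T cell markers 6 were called higher and 1 lower (0 without tumor WT replicate 1 or tumor cKO replicate 2), with sums of 342.1 to 412.2 and 755.4 to 1030.3 CPM, while Cd3e stood at 23.1 to 34.4 and 38.6 to 55.3 CPM. Tcrg-C2, a T cell receptor gamma constant segment, was among the 3 genes most like Chdh over the libraries (Serf1 at r = 0.9874, Tcrg-C2 at 0.9857 and Ap3s1 at 0.9843), at 2.79 and 6.86 CPM in spleen (WT, then cKO) and at 47.7 and 119.3 CPM in tumor. Serf1 stood at 1.07 and 1.73 CPM in spleen and at 4.82 and 8.43 CPM in tumor, and Ap3s1 at 5.72 and 8.29 CPM and at 48.8 and 71.9 CPM. NK markers were called lower for 8 of 12 (5 without tumor WT replicate 1 or 3, 4 without tumor cKO replicate 3), with sums of 89.5 to 321.2 and 71.5 to 94.2 CPM in tumor against 1512.8 to 1985.7 CPM in spleen.

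Of 10 fibroblast markers 2 were called higher and 5 lower in tumor cKO, and the 5 became 0 without tumor WT replicate 2, tumor cKO replicate 2 or tumor cKO replicate 3. The 2 called higher became 1 without any 1 of tumor WT replicates 1 and 3 and the tumor cKO libraries. Their sum, 427.2 to 2231.6 CPM in tumor WT and 778.0 to 1054.1 CPM in tumor cKO, was in tumor cKO mostly Thy1, which T cells also express and which rose from 339.8 to 861.9 CPM (adjusted p = 4.12e-05). The collagen gene Col1a1 went the other way, at 12.3 to 346.9 CPM in tumor WT and 4.96 to 14.1 CPM in tumor cKO. Endothelial markers (0 of 9 higher, 2 lower) summed to 144.3 to 384.2 and 65.1 to 105.1 CPM, epithelial markers (0 of 5 higher, 2 lower) to 48.7 to 90.8 and 5.34 to 19.5 CPM, and melanocyte markers (0 of 3 higher, 3 lower) to 141.1 to 622.3 and 22.3 to 101.0 CPM. The 2 endothelial calls became 1 without tumor WT replicate 2 or tumor cKO replicate 2 or 3, and the 2 epithelial calls became 1 without tumor WT replicate 3 or tumor cKO replicate 2 or 3. On average the epithelial sum in tumor WT was mostly Cdh1 (59.4 CPM), which stood at 4.9 CPM in tumor cKO. The keratin genes Krt8, Krt18 and Krt14 were not called (adjusted p = 0.394, 0.384 and 0.874). The 3 melanocyte calls became 2 without tumor WT replicate 2 or tumor cKO replicate 2 or 3. On average the melanocyte sum in tumor WT was mostly Gpnmb (268.9 CPM), followed by Mitf (42.7 CPM). Pmel lay at only 3.25 to 4.71 CPM in tumor WT, below its 5.72 to 6.53 CPM in spleen WT. Tyrp1, Tyr and Slc45a2 of the melanocyte list had no row in the count table, so their levels are unknown. No marker gene with a row was without reads in all libraries. The part of these cell types in the levels of the 9 genes was not tested.

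**Figure D5:**
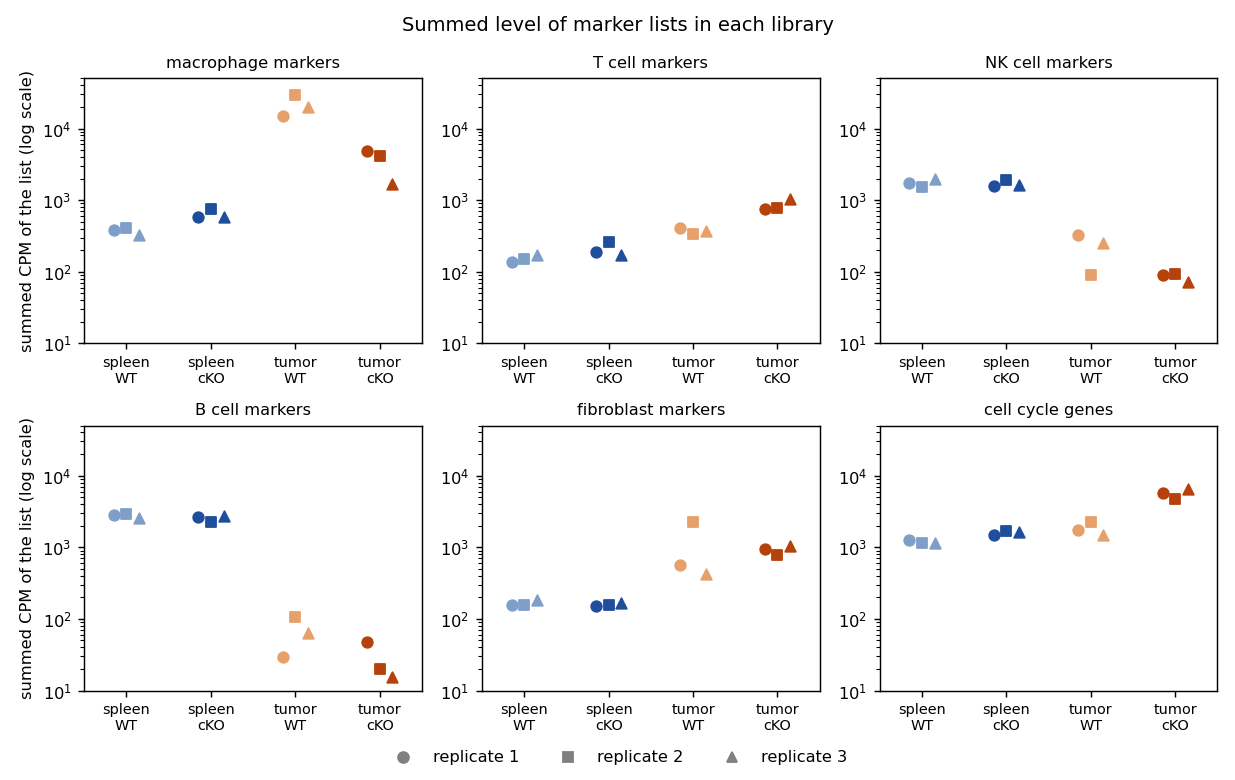
Summed CPM of 6 marker lists in each library on a log axis, with 1 point per library (circle, square and triangle for replicates 1, 2 and 3). Macrophage sums fall and T cell and cell cycle sums rise from tumor WT to tumor cKO without overlap, and B cell and NK cell sums are highest in spleen.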

How the data were processed

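Total RNA from 12 samples was extracted with TRIzol and sequenced on an Illumina NovaSeq, per the labels. Reads were mapped with TopHat2 2.0.6 to mm10 (GRCm38), per the submitters' processing notes. For the counting program and its strand setting, the sources used here give no entry. Whole-number counts per gene, without normalization, were deposited by the authors, as were RPKM values computed per listed length and library total. Between 68.8% and 73.3% of counts from 1 to 49 were even, as when both mates of a pair are counted, so counting noise exceeds what the counts alone imply. The knocked-out gene is not reported here, and its level was not used to check the labels.

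CPM levels use totals scaled with TMM factors (spleen 1.008 to 1.046, tumor WT 0.896 to 0.955, tumor cKO 1.032 to 1.055). All 12 libraries entered 1 quasi-likelihood model of group means in R 4.3.3 with edgeR 4.0.16 (filterByExpr, 8 residual degrees of freedom, two-sided tests). Calls are genes whose p, adjusted by Benjamini-Hochberg over 16831 genes, was under 0.05, and every adjusted p is from edgeR unless DESeq2 is named. For a group without reads the floor is 3 counts summed over its libraries, a limit for counting error only. The script was tested on simulated counts.

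The 9 genes, the lists and the alternatives were chosen with earlier results of these data known. The motifs and the check of shared 50-base stretches were chosen after the values had been seen. Named were all 9 genes, the genes overlapping them and the nearest tested ones, the 3 most abundant tested genes of each family list, and for likeness the 3 genes with the highest r among those averaging log2 CPM 1 or more. Other list genes were named after their values were seen. Positions are those of the count table. Alternatives were other scalings, no filter, DESeq2 1.42.0, limma 3.58.1 on log2 RPKM with pseudocounts of 0.1 and 1, 1 tissue alone, a replicate block, and leaving out each library.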

Additional observations from a re-analysis of the deposited data

How the results depend on the processing

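The separation of the 9 genes in tumor chose them, so that count, 9 throughout, says nothing of stability. The call of 0 of them in spleen became 2 without the filter on low counts (Chdh, adjusted p = 8.02e-07, and Tnnt1, adjusted p = 0.0211) and 1 in DESeq2. Calls over all genes in spleen rose too, from 5 higher and 0 lower. They were 194 higher and 36 lower without the filter, and 34 and 5 in DESeq2. The cause of these changes was not tested. Leaving out 1 library at a time gave 0 of the 9 genes in spleen each time. Spleen log2 differences near 0 changed sign: Myzap, at -0.01, became 0.01 without composition factors, 0.13 and 0.06 in limma with pseudocounts of 0.1 and 1, and between -0.35 and 0.25 with 1 library left out, above 0 without spleen WT replicate 1 (0.25), spleen WT replicate 2 (0.16), spleen cKO replicate 2 (0.14) or spleen cKO replicate 3 (0.02). Map3k19, at 0.07, ran from -0.19 to 0.21 with 1 library left out, below 0 without spleen WT replicate 3 (-0.14) and spleen cKO replicate 2 (-0.19), and Chst3, at -0.10, ran from -0.18 to 0.02, above 0 without spleen cKO replicate 2. In tumor, the log2 differences of genes with few reads depended on the scale: with a pseudocount of 1 RPKM in limma they were 3.23 for Amy1, 0.39 for Map3k19 and 0.31 for Chst3. Of 134 tested list and neighbour genes, 73 were called in tumor, and 54 to 76 under the alternatives. Leaving out tumor WT replicate 2 and tumor cKO replicate 3 together, chosen after seeing the data, left 57.

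Same-numbered libraries of WT and cKO within a tissue, and of spleen and tumor within a genotype, had deviations correlated at -0.09 to 0.1, so these data give no sign that the numbers pair the samples. With the replicate number as a block, 0 of the 9 genes were called in spleen and 66 list and neighbour genes in tumor. Depth limits Chst3 and Map3k19 in tumor, Chdh, Tnnt1 and Amy1 in spleen and Amy1 in tumor WT, all with under 70 reads per library.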
